A study of Mus musculus with 14 samples.

Results

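The transcripts described here are those of the EGF receptor family and its ligands: 10 genes, chosen by name, of the 28022 genes in the deposited count table. They comprise 3 receptors (*Egfr*, *Erbb2* and *Erbb3*) and 7 ligands (*Areg*, *Ereg*, *Hbegf*, *Tgfa*, *Btc*, *Epgn* and *Egf*). All 10 were present in the table. Egfr is a receptor tyrosine kinase that ligands of the EGF type activate by drawing receptors into pairs. Erbb2 binds no known ligand and serves as a partner, whereas Erbb3 binds some of the neuregulins, has little kinase activity of its own and passes signals on through its partner. The ligands are made as membrane-bound precursors that proteases of the ADAM family release, and in liver this pathway is known for driving hepatocyte proliferation during regeneration.

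The study converted C57BL/6J mouse embryonic fibroblasts into induced hepatic stem cells (iHepSCs) with lentiviral *Oct4* and *Hnf4α*, and asked how a 3D environment and induced endothelial cells (iECs) influence them. RNA-seq covered 7 conditions with 2 libraries each: fibroblasts (label Fib), iHepSC monolayers (2D-iH, label 2D-iHepSC), monolayers co-cultured with iECs (2D-iHE, label 2D-iHepSCiEC), iHepSC organoids in Matrigel and collagen hydrogel (iHLO, label 3D-iHA), organoids assembled with iECs (iHEA, label 3D-iHEA), and adult and fetal liver. The 4 cultures carried both delivered factors and shared 1 medium, part of which was EGM2, an endothelial medium that is sold with EGF among its supplements, so *Egf* transcripts do not measure all EGF that these cells met. The iECs came from a human fibroblast line converted with *ETV2*, and reads were aligned to the mouse genome alone, so the part of human transcripts in the co-culture counts was not tested. The study's qRT-PCR methods give adult liver as from 6-week-old male mice and fetal liver as from mid-gestation embryos, which its RNA-seq methods do not repeat. Both are whole tissues, and the fibroblasts were passaged embryonic cells. Every label reads replicate 1 and the design text gives 1 replicate for each condition, so the 2 libraries of a condition may come from the same culture or animal, and p-values measure the spread between libraries, which may be technical.

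Total counts ranged from 20851489 to 35143325 per library. Levels are given as CPM, counts relative to library sizes that were scaled by TMM, a factor that sets most genes level between libraries. That factor was 0.4285 and 0.4379 in the adult liver libraries and 1.11 to 1.20 in the other 12, with *Alb* alone at 533000 CPM in adult liver. Of 7 hepatocyte markers, *Serpina1a* was at or below 3 counts in every culture library and *Alb* in both 2D-iHE libraries, and the list summed to 638 to 1060 CPM in the cultures against 555300 to 593800 CPM in adult liver. Fibroblast markers summed to 22970 to 24410 CPM in fibroblasts and to 3.05 to 11.6 CPM in the cultures. The 5 endothelial markers summed to 464 to 472 CPM in 2D-iH and 406 to 419 CPM in 2D-iHE, and to 1082 to 1218 CPM in iHLO and 785 to 850 CPM in iHEA. The iECs were human and these are counts of mouse genes, so the sums do not measure how many iECs a culture held. *Cdh5* and *Vwf* made up nearly all of these sums. The libraries of iHEA and of fetal liver differed from each other more than those of other conditions, with a chi-square per gene of 11.5 and 13.4 against 3.05 to 3.67 elsewhere.

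The genes of 4 ligands are neighbours. *Epgn*, *Ereg*, *Areg* and *Btc* lie within 375.5 kb on mouse chromosome 5 (GRCm38, chr5:91027464-91402994), with 46.0 kb between *Ereg* and *Areg* and 208.8 kb between *Areg* and *Btc*. The promoters of *Areg* and *Btc*, which gave the results that differed with co-culture, and of *Egfr*, the receptor of all 7 ligands, are shown as the 250 bases before the RefSeq start (GRCm38.p6), 5′ to 3′ on the strand of the gene. The table of promoters matched 7 of the 10 genes and not *Ereg*, *Erbb3* or *Hbegf*. Capitals mark matches on either strand to 6 motifs that were searched. The letters searched were TGACTCA for the site of AP-1 factors, TGACGTCA for the cyclic AMP response element (CRE), GGAATG for the site of TEAD factors, CCGGAAG for that of ETS factors, GGGCGG for that of SP1 and TATAAA for the TATA box, and no match overlapped another in the windows shown.
Areg, chr5:91139349-91139598, plus strand: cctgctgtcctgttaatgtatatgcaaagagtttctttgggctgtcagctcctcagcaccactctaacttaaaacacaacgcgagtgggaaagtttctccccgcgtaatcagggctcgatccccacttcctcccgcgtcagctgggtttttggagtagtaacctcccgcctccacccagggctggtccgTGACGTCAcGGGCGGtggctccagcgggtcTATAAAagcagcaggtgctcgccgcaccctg
Btc, chr5:91402995-91403244, minus strand: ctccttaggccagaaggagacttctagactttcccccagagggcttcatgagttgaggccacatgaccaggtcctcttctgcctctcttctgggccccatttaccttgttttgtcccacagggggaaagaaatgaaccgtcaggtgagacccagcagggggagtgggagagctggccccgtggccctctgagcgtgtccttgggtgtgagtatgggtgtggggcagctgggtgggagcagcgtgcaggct
Egfr, chr11:16751953-16752202, plus strand: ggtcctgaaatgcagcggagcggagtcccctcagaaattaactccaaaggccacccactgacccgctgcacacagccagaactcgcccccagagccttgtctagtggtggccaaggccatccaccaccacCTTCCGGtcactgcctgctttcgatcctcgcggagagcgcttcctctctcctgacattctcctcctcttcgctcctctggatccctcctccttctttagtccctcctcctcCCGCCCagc
The *Areg* window held a CRE match 61 bases, an SP1 match 52 bases and a TATA match 31 bases before the start. Among 32851 promoters, 1.5% held the CRE, 32.7% the SP1 and 12.4% the TATA letters. The *Btc* window held none of the 6 motifs, and that of *Egfr* held an ETS match 120 bases and an SP1 match 9 bases before the start, both on the opposite strand; ETS letters were in 6.9% of promoters, AP-1 letters in 4.5% and TEAD letters in 12.6%. The GC content was 57.2% for *Areg*, 59.6% for *Btc* and 60.8% for *Egfr*, against a median of 52.4%, and *Areg* held 15 CpG dinucleotides, *Btc* 4 and *Egfr* 11. These matches describe the letters only.

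Between 2D and 3D culture the receptors moved apart. *Egfr* was read at 106 and 98.8 CPM in the 2D-iH libraries, 104 and 107 CPM in 2D-iHE, 42.9 and 40.5 CPM in iHLO, and 36.9 and 45.0 CPM in iHEA. All 4 libraries in 3D were thus below all 4 in 2D, and *Egfr* fell 2.45-fold (log2 fold change -1.29, SE 0.061, adjusted p = 4.6e-09, edgeR's quasi-likelihood test, 4 libraries against 4). *Erbb2*, the partner receptor, was read at 46.9 CPM in both 2D-iH libraries, 51.3 and 50.8 CPM in 2D-iHE, 107 and 113.8 CPM in iHLO, and 106 and 105 CPM in iHEA. It rose 2.27-fold (log2 fold change 1.18, SE 0.0468, adjusted p = 1.15e-09) with no overlap between 2D and 3D. *Erbb3*, a receptor of some neuregulins, went from 35.9 and 36.7 CPM in 2D-iH and 37.5 and 36.9 CPM in 2D-iHE to 113 and 114 CPM in iHLO and to 126 and 159 CPM in iHEA. This was the largest receptor change, 3.57-fold upwards (log2 fold change 1.84, SE 0.1, adjusted p = 1.62e-08), and the second iHEA library stood above the other 7. The sums of the hepatocyte markers (638 to 686 CPM in 2D, 1002 to 1060 CPM in 3D) and of the endothelial markers were also higher in 3D. Means in 2D-iH and iHLO were 373.6 and 667.7 CPM for *Apob* and 2.52 and 81.1 CPM for *Ttr*, but 299.7 and 294.2 CPM for *Apoa1*. They were 26.55 and 710.8 CPM for *Vwf*, but 440.1 and 425.9 CPM for *Cdh5*. The gains were thus not list-wide, and the part of either list in the receptor differences was not tested. In bulk RNA, a change in the number of cells that express a gene and a change in RNA per cell cannot be told apart.

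**Figure D1:**
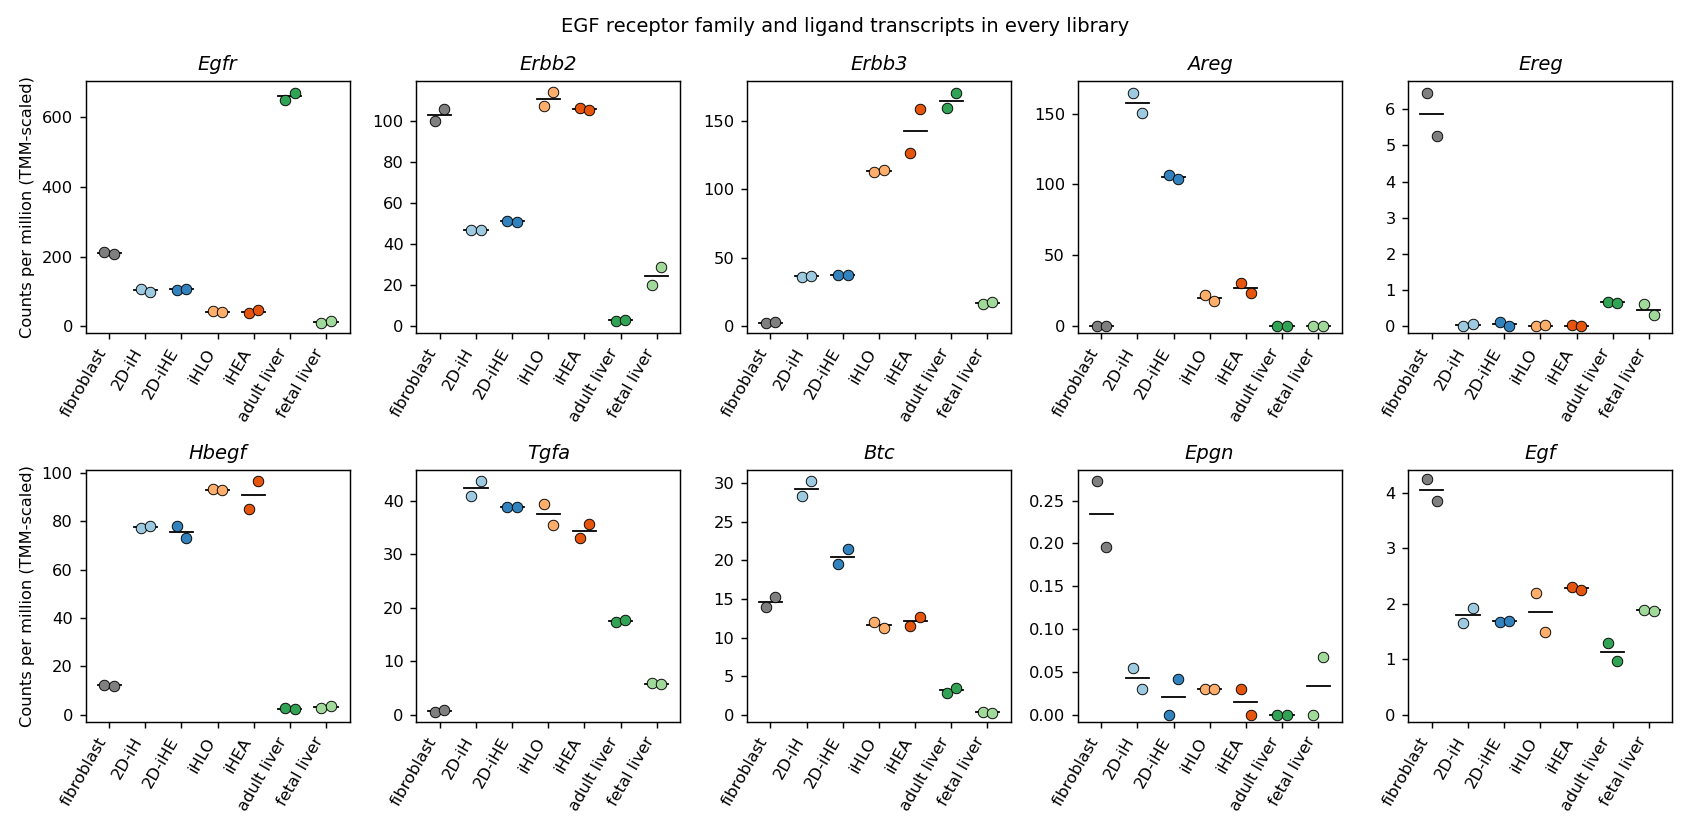
CPM (TMM-scaled, linear axes from 0, a different scale in each panel) of the 10 genes in each of the 14 libraries; points are libraries, horizontal lines are means of 2 libraries. *Egfr* and *Areg* sit lower and *Erbb2* and *Erbb3* higher in iHLO and iHEA than in 2D-iH and 2D-iHE, while adult liver is highest in *Egfr* at 651 and 671 CPM and has no *Areg* counts.

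Among the ligands, *Areg*, the gene of amphiregulin, showed the largest difference. It was read at 165 and 150.2 CPM in 2D-iH and 107 and 104 CPM in 2D-iHE, against 22.2 and 18.0 CPM in iHLO and 30.3 and 23.4 CPM in iHEA. It fell 5.45-fold in 3D (log2 fold change -2.45, SE 0.178, adjusted p = 1.85e-07), with every library in 3D far below the lowest in 2D. *Btc*, the gene of betacellulin, was at 28.3 and 30.2 CPM in 2D-iH and 19.5 and 21.5 CPM in 2D-iHE. In iHLO it was at 12.1 and 11.2 CPM and in iHEA at 11.6 and 12.7 CPM, a fall of 2.04-fold (log2 fold change -1.03, SE 0.129, adjusted p = 1.94e-05). *Hbegf*, the gene of heparin-binding EGF-like growth factor, moved the other way and by less, from 73.1 to 78.2 CPM over the 4 libraries in 2D to 84.8 to 96.5 CPM over the 4 in 3D. Its rise was 1.23-fold (log2 fold change 0.30, SE 0.0463, adjusted p = 0.000108).

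Neither of the remaining tested ligands passed the test. *Tgfa*, which encodes transforming growth factor alpha, ranged from 38.8 to 43.7 CPM in 2D and from 33.1 to 39.4 CPM in 3D, and these ranges overlapped (log2 fold change -0.14, SE 0.0603, adjusted p = 0.0569). It passed in 7 of 19 alternatives, among them DESeq2 size factors (adjusted p = 0.045) and the fits without the first 2D-iHE (0.0336), the second 2D-iHE (0.0463) or the first iHLO library (0.0162). *Egf* stayed at 1.49 to 2.31 CPM in all 8 culture libraries (log2 fold change 0.28, SE 0.17, adjusted p = 0.151) and passed when the second iHLO library was left out (log2 fold change 0.42, adjusted p = 0.0256). *Ereg*, the gene of epiregulin, had 0 to 4 counts per culture library and *Epgn*, the gene of epigen, 0 to 2. Both were below the filter on low counts and were not tested, and their differences within the cultures were not detectable at this depth.

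In all, 3 of the 8 tested genes were higher in 3D and 3 lower, where 38.7% of the 13409 tested genes were called higher and 37.2% lower. The same 6 genes were called in each pair of cultures taken alone. iHLO against 2D-iH gave 3 higher and 3 lower, against 36.9% and 35.3% of all genes, and iHEA against 2D-iHE also gave 3 and 3, against 36.0% and 34.9%. Calls of this kind were therefore common in the whole transcriptome. The pooled comparison shares its libraries with both, so these are not separate evidence for it, whereas the 2 paired comparisons share no library with each other but share 1 estimate of the spread.

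**Figure D2:**
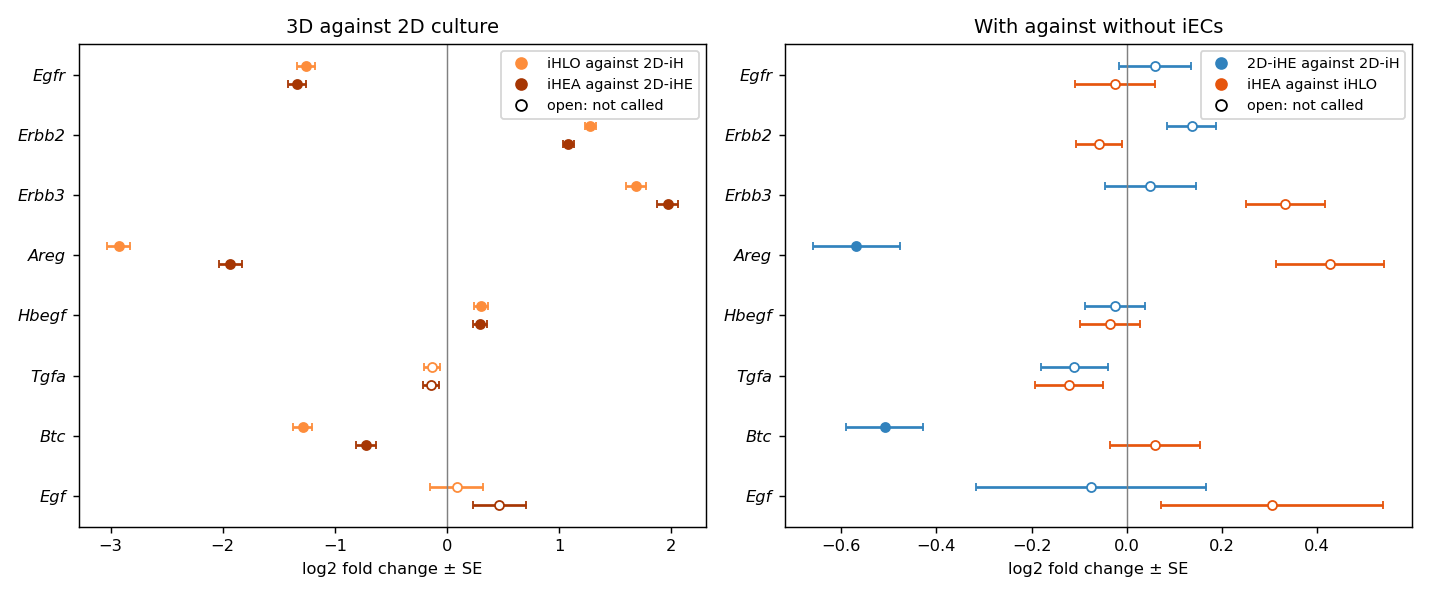
Log2 fold change with its standard error for the 8 tested genes, 3D against 2D culture on the left and with against without iECs on the right; filled points passed an adjusted p of 0.05 and open points did not, and the horizontal scales differ. *Areg* lies at -2.93 without and -1.93 with iECs on the left, and at -0.57 in 2D and 0.43 in 3D on the right.

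Co-culture with iECs changed few of these genes. In 2D, *Areg* was 1.48-fold lower in 2D-iHE than in 2D-iH (log2 fold change -0.57, SE 0.0905, adjusted p = 0.00225) and *Btc* 1.42-fold lower (log2 fold change -0.51, SE 0.0812, adjusted p = 0.0023), with no overlap between libraries. These were 2 lower and 0 higher calls among the 8 genes by edgeR, where 3.92% of all genes were lower and 4.26% higher, and the same counts by DESeq2, where 4.37% were lower and 3.93% higher. At an unadjusted p under 0.05, 1 was higher by edgeR, *Erbb2* (log2 fold change 0.14, SE 0.0522), against 11.4% of all genes. Without the first 2D-iHE library neither call held (adjusted p = 0.0514 for *Areg*, 0.0707 for *Btc*), and without the first 2D-iH library that of *Areg* did not (0.0502).

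In 3D, none of the 8 genes was called between iHEA and iHLO by edgeR, against 1.19% of all genes called higher and 1.07% lower. At an unadjusted p under 0.05, which 6.23% of all genes passed as higher and 6.46% as lower, there were 2 higher and 0 lower, *Areg* (log2 fold change 0.43, SE 0.113, adjusted p = 0.0782 by edgeR) and *Erbb3* (log2 fold change 0.33, SE 0.0836, adjusted p = 0.0652). DESeq2's Wald test called 1 of them, *Erbb3* (adjusted p = 0.0103), against 1.19% of all genes called higher by it. With no filter on low counts edgeR called both (adjusted p = 1e-05 for *Erbb3*, 3.19e-06 for *Areg*), where 2.06% of all genes were called higher, and on total counts without TMM it called *Erbb3* (0.0482, where 1.44% of all genes were called higher) and not *Areg* (0.0566). Both also depended on the iHEA libraries: without the first, *Erbb3* was called (log2 fold change 0.50, adjusted p = 2.71e-06), and without the second, *Areg* was called (log2 fold change 0.59, adjusted p = 0.000229), where 2.85% and 2.53% of all genes were called higher.

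The effect of iECs on *Areg* differed between 3D and 2D. The difference of the 2 effects was 1.00 on the log2 scale (SE 0.145, adjusted p = 0.00301 by edgeR), which is also the difference between the fall of 2.93 in iHLO against 2D-iH and that of 1.93 in iHEA against 2D-iHE. *Btc* showed a difference of 0.57 (SE 0.125, adjusted p = 0.0285). These were 2 higher and 0 lower calls among 8 genes by edgeR, where 1.52% of all genes were higher and 1.62% lower, and by DESeq2, where 2.15% were higher and 2.10% lower. At an unadjusted p under 0.05, which 6.66% of all genes passed as higher and 8.51% as lower, edgeR gave 1 lower, *Erbb2* (-0.20, SE 0.0711), and 3 higher, *Erbb3* being the third (0.28, SE 0.127). *Areg* kept its call in all 16 alternatives (adjusted p up to 0.032). *Btc* kept it in 11 of 16 and lost it without either 2D-iH library, the first 2D-iHE library or either iHLO library (log2 difference 0.49 to 0.63, adjusted p = 0.0711 to 0.157). The difference for *Erbb3* was called without the first iHEA library (0.45, adjusted p = 0.000723), where 3.20% of all genes were called higher. The 5 cholangiocyte markers, all above 3 counts, summed to 1228 to 1310 CPM in 2D-iH, 1063 to 1183 CPM in 2D-iHE, 1171 to 1240 CPM in iHLO and 1461 to 1475 CPM in iHEA. Their sum was thus also lower with iECs in 2D and higher with iECs in 3D. The fall in 2D was mainly that of *Krt19* (means of 896.9 CPM in 2D-iH and 715.7 CPM in 2D-iHE), and *Sox9* and *Epcam* were lower too. *Krt7* (338 and 369.4 CPM) and *Spp1* (13.1 and 19.8 CPM) were higher with iECs in 2D. The delivered factors *Pou5f1* (Oct4) and *Hnf4a* summed to 209 to 211, 169 to 170, 160 to 171 and 175 to 181 CPM in 2D-iH, 2D-iHE, iHLO and iHEA. Nearly all of each sum was *Hnf4a*, with *Pou5f1* at means of 0.669, 0.539, 0.392 and 0.662 CPM in that order. The part of the cholangiocyte markers or of the delivered factors in the *Areg* and *Btc* results was not tested.

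To set genes side by side, levels were taken per kilobase of all annotated exons of a gene. The transcripts expressed may be shorter, so shares of different genes depend on these lengths. On this measure the make-up of the family shifted with the culture. In 2D-iH, *Egfr* held 37.6% of the summed receptor level, *Erbb2* 37.4% and *Erbb3* 25.1%. In iHLO these shares were 8.43%, 48.5% and 43.1%, and in iHEA 7.59%, 42.8% and 49.6%, so that *Egfr* went from the joint highest to the lowest of the 3. The summed receptor level was 24.1 ± 0.363 CPM per kb in 2D-iH and 43.7 ± 0.921 in iHLO, 25.3 ± 0.0705 in 2D-iHE and 47.6 ± 4.17 in iHEA (SD, n = 2 each). Ligands went the other way, from 158.9 ± 7.78 CPM per kb in 2D-iH to 44.3 ± 3.10 in iHLO and from 112.9 ± 2.26 in 2D-iHE to 49.0 ± 1.88 in iHEA. *Areg* made up 81.6% of the ligand level in 2D-iH and 76.7% in 2D-iHE, and *Hbegf* 10.1% and 13.8%. In iHLO *Areg* held 37.2% and *Hbegf* 43.5%, and in iHEA 44.9% and 38.3%.

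**Figure D3:**
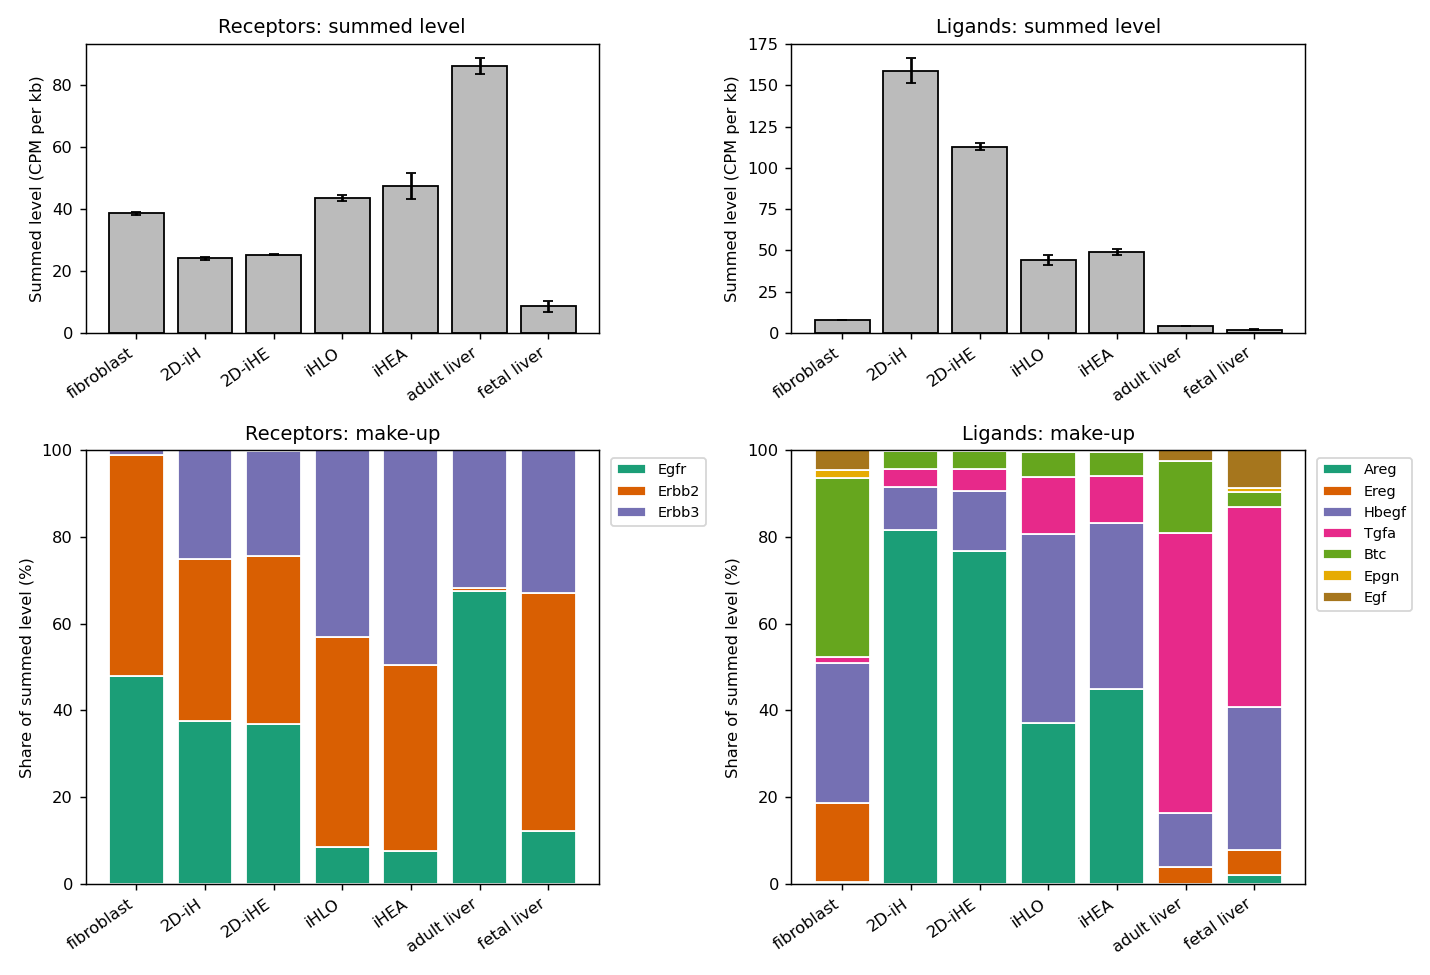
Top, summed level of the 3 receptors and the 7 ligands in CPM per kilobase of exon (bars are means of 2 libraries, error bars SD); bottom, mean share of each gene in that sum. Ligands sum to 158.9 CPM per kb in 2D-iH and 44.3 in iHLO, with *Areg* at 81.6% and 37.2% of the sum, and *Egfr* holds 67.7% of the receptor level in adult liver against 8.43% in iHLO.

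In the source fibroblasts, *Btc* held 41.5% of the summed ligand level per kilobase, *Hbegf* 32.2% and *Ereg* 18.2%, while *Areg* was nearly absent. *Areg* had 2 and 1 counts in the fibroblast libraries and 6052 and 4919 in 2D-iH, at least 1753-fold more when the fibroblast level is set at the floor of 3 counts per library. *Tgfa* rose from 20 and 26 counts to 1504 and 1430 (log2 fold change 5.94, SE 0.13, adjusted p = 1.37e-15 by edgeR on all 14 libraries), *Hbegf* by 2.67 (SE 0.0783, adjusted p = 3.66e-14) and *Btc* by 1.00 (SE 0.0919, adjusted p = 5.35e-08). Each of these 4 ligands was higher in both 2D-iH libraries than in either fibroblast library. *Ereg*, in contrast, had 237 and 161 counts in fibroblasts and 0 and 2 in 2D-iH, at least 67.6-fold less. *Epgn* had 10 and 6 counts in fibroblasts and 2 and 1 in 2D-iH, at least 2.70-fold less. Within the chromosome 5 group, *Ereg* and its neighbour *Areg* thus lay in opposite orders in fibroblasts and in 2D-iH, and *Btc*, at 13.9 and 15.2 CPM in fibroblasts, was read in both. *Egf* fell by 1.19 on the log2 scale (SE 0.192, adjusted p = 3.3e-05), from 4.25 and 3.85 CPM to 1.66 and 1.92 CPM.

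Of the receptors, *Erbb3* rose from 2.24 and 2.91 CPM in fibroblasts (log2 fold change 3.83, SE 0.136, adjusted p = 3.86e-13), while *Egfr* fell from 213 and 207 CPM (log2 fold change -1.04, SE 0.121, adjusted p = 8.92e-07) and *Erbb2* from 99.9 and 106 CPM (log2 fold change -1.14, SE 0.0982, adjusted p = 2.44e-08). Fibroblasts and 2D-iH also differed in medium, which cannot be told apart from the conversion. Of the 8 tested genes 5 were higher in 2D-iH and 3 lower, where 45.7% of 14121 genes were called higher and 38.2% lower. *Ereg* and *Epgn* were not among those tested; when they were added, both were lower (log2 fold change -7.48, adjusted p = 1.98e-09, and -2.36, adjusted p = 0.0108), and with no filter on low counts *Epgn* did not pass (adjusted p = 0.0606).

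Of the cultures, iHLO was tested against adult liver, and it was lower in *Egfr* and higher in *Erbb2*, *Hbegf* and *Areg*. The sizes of these differences depended on scaling. Without the TMM factors, as a share of all counts, the median log2 fold change of all genes was 1.56 instead of 0.13, with 74.1% of genes higher in iHLO and 18.3% lower instead of 45.7% and 39.2%. Among the 8 tested members 6 were higher in iHLO and 2 lower on TMM-scaled sizes, and 7 and 1 without the factors. *Egfr* was at 651 and 671 CPM in adult liver, above every other library, and at 8.96 and 15.2 CPM in fetal liver, below every other. iHLO was 16.4-fold below adult liver (log2 fold change -4.03, SE 0.136, adjusted p = 1.57e-13 by edgeR) on TMM-scaled sizes, with a log2 fold change of -2.60 without the factors. *Erbb2* was at 2.65 and 3.06 CPM in adult liver and 20.2 and 28.8 CPM in fetal liver, so that iHLO stood 37.3-fold above adult liver (log2 fold change 5.22, SE 0.163, adjusted p = 6.05e-14), with a log2 fold change of 6.65 without the factors. *Hbegf* was at 2.72 and 2.35 CPM in adult and 2.79 and 3.45 CPM in fetal liver, against 93.4 and 92.7 CPM in iHLO (log2 fold change against adult liver 5.15, SE 0.116, adjusted p = 1.08e-15, and 6.58 without the factors). *Areg* had no counts in adult liver, where the floor of 3 counts allows up to 0.196 and 0.204 CPM, and 0 and 3 counts in fetal liver, so iHLO was at least 100.5-fold above adult liver (271.6-fold without the factors).

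Between iHLO and adult liver, *Erbb3* was the one tested member whose order depended on scaling. On TMM-scaled sizes adult liver held 159 and 170.4 CPM, and iHLO was lower (log2 fold change -0.59, SE 0.0862, adjusted p = 1.14e-05). Without the TMM factors iHLO held 131.5 to 133.6 and adult liver 68.1 to 74.6 CPM, and iHLO was higher (log2 fold change 0.85, adjusted p = 3.34e-07). In fetal liver it was at 16.0 and 17.2 CPM. *Tgfa* and *Btc* were higher in iHLO than in adult liver (log2 fold change 1.05, SE 0.0882, and 1.83, SE 0.145, or 2.48 and 3.26 without the factors). *Egf* was called higher too (log2 fold change 0.66, SE 0.272, adjusted p = 0.0348), but in 6 of 14 alternatives only, and not without the first iHLO library (adjusted p = 0.283), the first adult liver library (0.0621) or the second (0.322). Without the factors, mean *Egf* was 2.16 CPM in iHLO and 0.491 CPM in adult liver, against 1.84 and 1.14 CPM on TMM-scaled sizes. *Ereg*, at 10 counts in each adult liver library, was at least 7.38-fold lower in iHLO on TMM-scaled sizes and at least 2.73-fold lower without the factors.

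Between adult and fetal liver, 4 of the 8 were called higher in the adult and 2 lower, against 40.0% and 43.8% of all genes. Without the TMM factors 3 were higher and 3 lower, against 16.2% and 75.3% of all genes. *Tgfa* was at 17.3 and 17.7 CPM in adult and 5.89 and 5.73 CPM in fetal liver, and *Btc* at 2.79 and 3.52 CPM in adult and 0.364 and 0.268 CPM in fetal liver. *Egf* was at 1.29 and 0.978 CPM in adult liver and at 1.88 CPM in both fetal libraries. The adult and fetal libraries of these 3 ligands did not overlap. *Egfr* was higher by 5.81 on the log2 scale (SE 0.155, adjusted p = 8.44e-15), *Erbb3* by 3.34 (SE 0.101), *Btc* by 3.32 (SE 0.272) and *Tgfa* by 1.62 (SE 0.108). *Erbb2* was lower (log2 fold change -3.06, SE 0.189, adjusted p = 3.28e-10), and so was *Egf* (log2 fold change -0.70, SE 0.273, adjusted p = 0.0265), whose call was lost in 7 of 14 alternatives, among them those without the second adult (adjusted p = 0.25), the first fetal (0.0814) or the second fetal library (0.0534). Without the TMM factors *Egfr* was higher in adult liver by 4.39, *Erbb3* by 1.92 and *Btc* by 1.91 on the log2 scale, with *Erbb2* at -4.48 and *Egf* at -2.12. *Tgfa* no longer passed (log2 fold change 0.20, adjusted p = 0.105) and *Hbegf*, not called with them (-0.27, adjusted p = 0.19), was lower in adult liver (-1.69, adjusted p = 3.54e-07). Hepatocyte markers summed to 11600 to 14650 CPM in fetal liver, far below adult liver, fibroblast markers to 84.0 to 89.0 CPM in adult and 1010 to 1783 CPM in fetal liver, and cholangiocyte markers to 230 to 233 CPM in adult and 45.4 to 56.1 CPM in fetal liver. Most of the adult cholangiocyte sum was *Spp1*, with means of 202.6 CPM in adult and 5.16 CPM in fetal liver. *Krt19* (9.71 against 11.2 CPM), *Krt7* (5.39 against 13.5), *Sox9* (4.29 against 5.85) and *Epcam* (9.54 against 15.1) were lower in adult liver. Fetal liver held 23180 to 24400 CPM of 5 erythroid markers against 518 to 566 CPM in adult liver, and adult liver 1225 to 1284 CPM of 5 macrophage markers against 169 to 216 CPM in fetal liver. The part of these lists in the differences was not tested. Per kilobase, *Egfr* held 67.7% of the receptor level in adult liver and 12.3% in fetal liver, and *Tgfa* was the leading ligand in both, with 64.5% and 46.0%.

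The fourth receptor, *Erbb4*, which binds neuregulins and some EGF-type ligands, had 0 or 1 counts in all 10 libraries of cultures and fibroblasts, 145 and 134 counts in adult liver and 13 to 22 in fetal liver. Of the neuregulins, each a ligand of Erbb3, of Erbb4 or of both, *Nrg1* was at 18.4 to 22.1 CPM in 2D and 1.19 to 2.46 CPM in 3D (log2 fold change -3.50, SE 0.154, adjusted p = 2.6e-09 by edgeR). *Nrg4* went from 8.49 to 11.6 CPM in 2D to 40.7 to 50.8 CPM in 3D (log2 fold change 2.29, SE 0.0977, adjusted p = 2.03e-09), so the 2 tested neuregulins moved in opposite directions. Adult liver held 36.3 and 34.3 CPM of *Nrg4* and fetal liver 1.31 and 1.17 CPM. *Nrg2* and *Nrg3* were too low to test.

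Of 59 further genes of the pathway in 6 fixed lists, 55 were tested, and 14 were higher and 30 lower in 3D than in 2D, against 38.7% and 37.2% of all genes, with a median log2 fold change of -0.23 against 0.01 over all genes. Among 7 tested sheddases and their partners, 4 were lower and 1 higher. *Adam8* fell from 2612 to 4652 counts in 2D to 32 to 74 counts in 3D (log2 fold change -5.88, SE 0.191) and *Adam12* likewise (log2 fold change -5.18, SE 0.228), while *Adam17*, the main sheddase of *Areg* and *Tgfa* precursors, stayed between 78.8 and 84.2 CPM in the means of the 4 cultures and was not called. Among 23 ERK feedback and target genes, 11 were lower and 5 higher. *Fosl1*, an AP-1 subunit, *Etv4*, an ETS factor, *Ccnd1*, the gene of cyclin D1, and *Phlda1* fell most, with log2 fold changes of -4.90 (SE 0.16), -3.06 (SE 0.156), -2.62 (SE 0.0669) and -2.00 (SE 0.0708). The 5 that rose were *Spry1* and *Spry2*, which encode feedback inhibitors of the pathway (log2 fold change 1.57, SE 0.104, and 0.71, SE 0.0889), *Ier2* (0.49, SE 0.0538), *Etv5*, an ETS factor (0.38, SE 0.0565), and *Mcl1* (0.32, SE 0.0351). *Dusp6*, an ERK phosphatase and common ERK target, was not called, with means of 334.1 CPM in 2D-iH, 349.1 CPM in 2D-iHE, 334 CPM in iHLO and 318.7 CPM in iHEA.

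**Figure D4:**
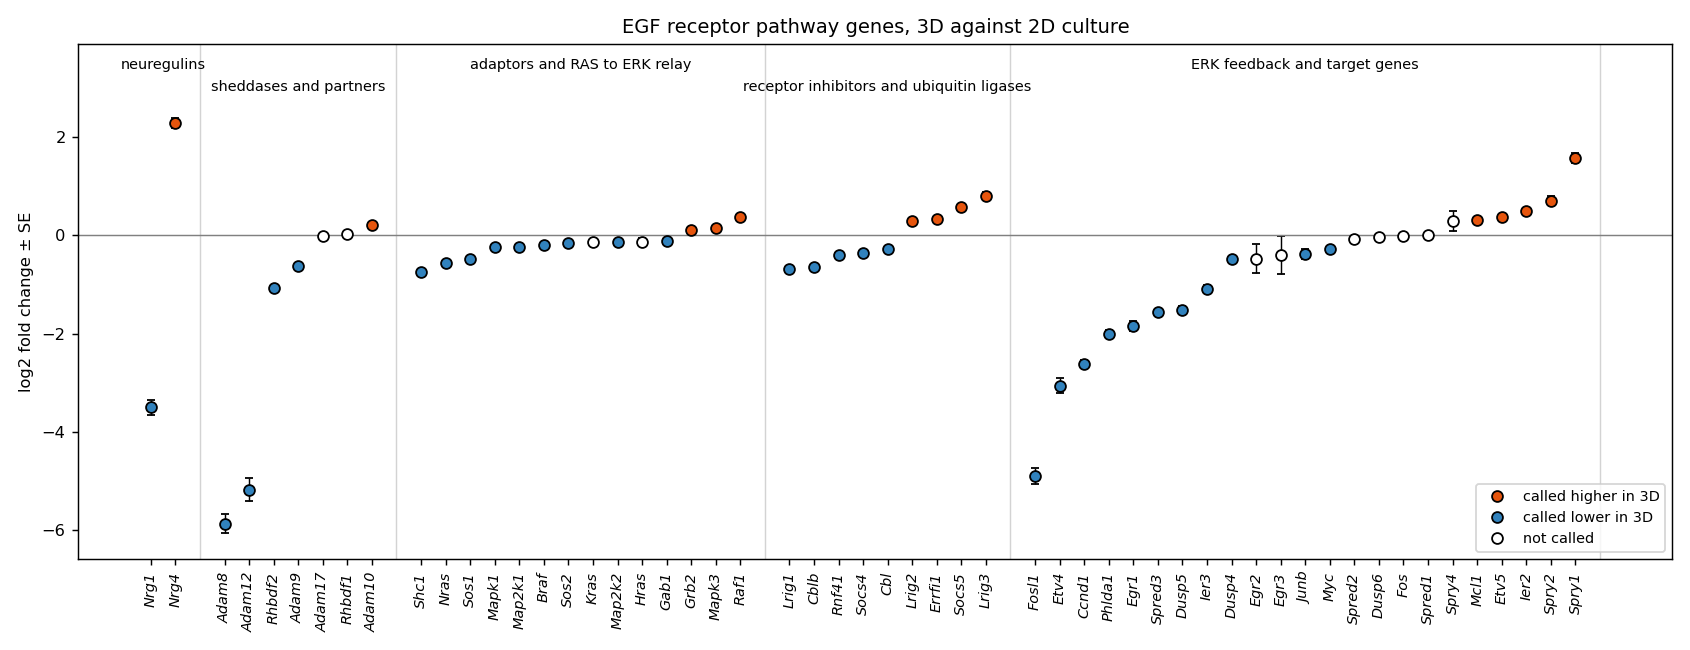
Log2 fold change with its standard error between 3D and 2D culture for the 55 tested genes of the pathway, ordered within each list; orange points were called higher, blue points lower, and white points were not called. The largest falls are *Adam8* at -5.88, *Adam12* at -5.18 and *Fosl1* at -4.90, and *Nrg4* is the largest rise at 2.29.

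The relay and the inhibitors moved by less. Of 14 adaptors and members of the RAS to ERK relay, 9 were lower and 3 higher, all by less than 1 on the log2 scale, against 37.2% and 38.7% of all genes, with *Shc1* (-0.75, SE 0.0356) and *Nras* (-0.56, SE 0.0364) first. Of 9 receptor inhibitors and ubiquitin ligases, 5 were lower and 4 higher, against the same shares, led by *Lrig3* (0.81, SE 0.0792), *Lrig1* (-0.69, SE 0.0481) and *Cblb* (-0.64, SE 0.0477). With iECs in 2D, 3 of the 55 genes were higher (*Adam12*, *Adam8* and *Lrig3*) and 3 lower, the ERK feedback and target genes *Spry4* (log2 fold change -0.94, SE 0.091, adjusted p = 6.66e-05), *Egr1* (-0.31, SE 0.0684) and *Dusp5* (-0.25, SE 0.0618). These counts stood against 4.26% of all genes higher and 3.92% lower; without the TMM factors 7 were higher and 3 lower, against 5.60% and 3.07%. With iECs in 3D, 1 of the 55, *Spred1*, was called lower (-0.27, SE 0.0583, adjusted p = 0.0331), against 1.07% of all genes. The effect of iECs differed between 3D and 2D for *Spry4* (0.73, SE 0.126, adjusted p = 0.00787) and *Egr1* (0.55, SE 0.109, adjusted p = 0.0173), both in the direction of *Areg* and *Btc*, against 1.52% of all genes called in that direction.

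In the reference samples, 33 of the 55 genes were higher and 19 lower in 2D-iH than in fibroblasts, against 45.7% and 38.2% of all genes. In iHLO 40 were higher and 7 lower than in adult liver, against 45.7% and 39.2%, and without the TMM factors 53 and 2, against 74.1% and 18.3%. Among the 23 ERK feedback and target genes 15 were higher in 2D-iH than in fibroblasts and 6 lower. *Fosl1* (log2 fold change 4.71, SE 0.208) and *Dusp6* (4.33, SE 0.0751) rose most, and *Egr3* (-4.40, SE 0.22) and *Egr2* (-4.24, SE 0.248), which encode early growth response factors, fell most. Elsewhere *Rhbdf2*, a partner of Adam17 (5.77, SE 0.105), and *Adam8* (4.04, SE 0.134) were higher, and *Lrig3* (-3.96, SE 0.0938) and *Adam12* (-2.95, SE 0.115) lower. Of the same 23 genes 18 were higher in iHLO than in adult liver and 3 lower, with *Dusp4* (4.83, SE 0.13), *Ier3* (4.10, SE 0.162) and *Spry2* (3.78, SE 0.156) among the largest, or 6.26, 5.53 and 5.21 without the factors. *Fosl1* had 8 and 9 counts in iHLO and no counts in adult liver. *Errfi1*, which inhibits Egfr, was at 1780 CPM in adult liver, 34.5 CPM in fetal liver and 149 CPM in iHLO (means), and was lower in iHLO than in adult liver (log2 fold change -3.62, SE 0.0659, and -2.19 without the factors). Adult liver was thus highest in both *Egfr* and this inhibitor.

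Over the 14 libraries, the genes whose log2 CPM was most like that of a member were found among 14113 others. *Erbb2* was closest to *Zfp282* (Pearson's r = 0.9937), *Erbb3* to *Dennd2d* (0.9933) and *Thpo* (0.9918), and *Areg* to *Clca1* (0.9956) and *Krt6a* (0.9937). An r above 0.95 was reached by 232 genes for *Areg*, 283 for *Hbegf*, 1 for *Egf* and 0 for *Epgn*. The points share conditions in pairs, so these values describe the 7 conditions more than 14 separate samples.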

How the data were processed

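RNA-seq counts were analysed in 14 libraries, 2 for each of 7 conditions taken from the labels. Per the labels and the methods of the study, the authors sequenced 150 bp paired-end reads, aligned them with HISAT2 to GRCm38 (mm10), annotated them with Cufflinks and counted them with HTSeq; the submitters' notes also name Trimmomatic 0.36. The strand setting, annotation release and treatment of reads that match several genes are not given in the sources used here, so reads of *Egfr*, *Erbb2*, *Ereg*, *Tgfa* and *Egf* cannot be told apart from those of annotated genes that overlap them on the opposite strand. The deposited values are raw counts per gene. The label 3D-iHA was matched to iHLO through the study's text. One iHEA column carries a number that matches 2 samples, and was used without a number.

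Genes whose log2(count + 1) averaged 3 or more over the libraries of a fit were tested with edgeR 4.0.16 in R 4.3.3 (TMM, quasi-likelihood test, Benjamini-Hochberg adjustment over all tested genes, called at an adjusted p under 0.05). The 8 culture libraries entered the culture comparisons (4 against 4 for 3D against 2D, otherwise 1 term per condition) and all 14 libraries the others. SEs are the log2 fold change divided by the square root of the F statistic. On simulated counts with 200 changed genes the fits were checked. Alternatives were DESeq2 1.42.0, other filters, scalings and sets of libraries, a replicate block, and leaving out each library. A median shift over all genes of 0.11 (2D-iH against fibroblast) and 0.13 (iHLO against adult liver) was centred out as 1 alternative.

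The floor was 3 counts per library, from 0.0751 to 0.204 CPM, and covers counting error only. Exon lengths came from GENCODE annotation of GRCm38, promoters from RefSeq. The 10 genes and all lists were chosen with earlier results of these data known. All members are named; of each pathway list, up to 4 called genes with the largest absolute changes could be named for each comparison, and the text names part of these; *Adam17*, *Dusp6*, the ERK target genes that rose and *Nrg4* levels in liver were added after their values were seen. Library numbers did not pair the libraries where this could be checked.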

Additional observations from a re-analysis of the deposited data

Results flagged for a closer look

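The effect of iECs differed between 3D and 2D culture for *Areg*, by 0.996 on the log2 scale (adjusted p = 0.00301, edgeR's quasi-likelihood test), and for *Btc*, by 0.568 (adjusted p = 0.0285).

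*Egf* was apart from the other libraries in 2 cases: 1 library of 2D-iH at 1.92 CPM among the 4 libraries in 2D, the other 3 of which were at 1.66 to 1.69 CPM, and 1 library of iHLO at 1.49 CPM among the 4 in 3D, the other 3 of which were at 2.20 to 2.31 CPM. Such a gap arises by chance in about 1 in 20 groups. The exact 95% Poisson interval of counting error for the 2D-iH library, read at 63 counts, was 1.48 to 2.46 CPM and held the other 3 values. That for the iHLO library, read at 49 counts, was 1.10 to 1.97 CPM, which overlapped the intervals of the other 3 but not their values.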

How the results depend on the processing

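Of 1049 values of single genes under an alternative, 987 kept their direction and their side of the threshold, 24 fell below it, 20 passed it and 18 changed direction; of 399 counts, 356 stayed within 1.5 times. The library numbers did not pair the libraries of the 6 conditions with 2 numbered libraries (correlations of their differences from -0.07 to 0.048 over 15 pairs of conditions), and iHEA could not be checked. The cause of each change below was not tested, except where fewer libraries or another set of genes entered the fit.

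One called result changed direction: *Erbb3* in iHLO against adult liver was 0.848 on the log2 scale on total counts without TMM, which left 1 member lower. In 2D-iHE against 2D-iH, *Hbegf* was 0.002 on total counts. When 1 library was left out, values that were not called either way crossed 0 and ranged, on the log2 scale, from -0.215 to 0.345 for *Egf* in iHLO against 2D-iH, from -0.184 to 0.039 for *Egf* and from -0.063 to 0.011 for *Hbegf* in 2D-iHE against 2D-iH, from -0.18 to 0.123 for *Egfr*, from -0.138 to 0.065 for *Hbegf* and from -0.013 to 0.135 for *Btc* in iHEA against iHLO, and, for the difference of co-culture effects, from -0.237 to 0.065 for *Egfr*, from -0.114 to 0.089 for *Hbegf* and from -0.085 to 0.069 for *Tgfa*.

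In 2D-iHE against 2D-iH, 1096 genes were called, 2046 with only the libraries compared, 1952 with the replicate block, 2029 with the same libraries without it, and 250 to 426 when 1 library was left out, where 0 to 2 members were lower against 2. In iHEA against iHLO, 303 genes were called, 881 with no filter, 90 with only the libraries compared and 93 to 723 when 1 library was left out; members called higher were 0, but 2 with no filter, 1 by DESeq2's Wald test, 1 on total counts without TMM, and 0 to 1 when 1 library was left out. For the difference of co-culture effects, 421 genes were called, 901 with no filter and 129 to 959 when 1 library was left out, where 1 to 3 members were higher against 2. Members lower in 2D-iH than in fibroblasts were 3, and 5 with all members added to the tested genes. Members lower in adult than in fetal liver were 2, but 1 with DESeq2 size factors, DESeq2's Wald test, median centring or only the libraries compared, and 1 to 2 when 1 library was left out. The replicate block changed no call of a member; it could not be fitted for iHEA against 2D-iHE, iHEA against iHLO and the difference of co-culture effects, since iHEA has 1 numbered library. Adding members to the tested genes, total counts without TMM and the libraries of the block without it were chosen after seeing the data.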
